A study of Sus scrofa with 15 samples.

Results

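The transcripts of 9 genes of serine and one-carbon metabolism were followed through pig oocyte maturation, namely *SDS*, *SDSL*, *PHGDH*, *SHMT1*, *SHMT2*, *MTHFD1*, *MTHFD2*, *MAT2A* and *AHCY*. They were picked by symbol from the 22516 genes of the pig gene table, and earlier values from the same libraries, in which *SDS* was among the largest falls from GV to matured oocytes, guided the choice. All 9 were present, and 7 of the 9 had enough counts for the model. *SDSL* and *PHGDH* did not, and their counts are given as they are.

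The oocytes came from sow ovaries of an abattoir, and each of the 15 libraries was a pool of 15 oocytes. The paper describes 5 independent collections, with 15 oocytes taken for each group, so the groups may share collections. GV (germinal vesicle) oocytes were freed from fresh follicles, had no culture and no first polar body, and made up 5 libraries. MII (metaphase II) oocytes had been matured in vitro for 44 h inside their cumulus complexes and had extruded a first polar body (5 libraries), whereas ‘damaged’ oocytes went through the same culture and lacked one (5 libraries). The ‘damaged’ group is therefore defined by a missing polar body alone, and culture separates it, like MII, from GV. MII and ‘damaged’ are joined as MIX where they are set against GV together. The fits used 14 libraries. GV replicate 3, the shallowest at 6.40 M estimated counts against 12 to 23.6 M in the others, entered none of them, and its value is given separately. Column names of the deposited gene table contradicted the labels for 7 libraries, GV replicates 1 to 3 and replicates 1 and 2 of MII and of ‘damaged’, so the group of each of these rests on the labels of the transcript files. With the other 8 libraries alone, *SDS* had a log2 fold change of -7.28 between MIX and GV, and 0 members passed the limma test between MII and ‘damaged’ oocytes, where *SHMT1* had the lowest unadjusted p at 0.0359 (limma FDR 1.00).

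Serine feeds the folate cycle. *PHGDH* opens its synthesis from a glycolytic intermediate, while *SDS* (serine dehydratase) and its relative *SDSL* break it down to pyruvate. *SHMT1* in the cytosol and *SHMT2* in mitochondria pass a carbon from serine to folate and leave glycine. *MTHFD1* (cytosol) and *MTHFD2* (mitochondria) interconvert the folate-bound carbon, which serves purine and thymidylate synthesis and the remaking of methionine. *MAT2A* turns methionine into S-adenosylmethionine, the methyl donor of DNA, RNA and histone methylation, and *AHCY* clears the S-adenosylhomocysteine left behind. A full-grown oocyte makes little new RNA, so maturation draws on stored transcripts.

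Levels are given on different scales. CPM values (counts scaled to the same library total) were divided by TMM factors, which align the bulk of the genes between libraries. These factors were 1.35 to 1.73 in the GV libraries of the fits and 0.794 to 0.922 in MIX. With them, the 13220 genes tested had a median MIX versus GV difference of -0.16 (log2). On plain library sizes that median was -1.06, so MIX versus GV values sit lower on that scale. TPM values, which are per transcript length within a library, are used to compare genes with each other. Pools of oocytes cannot tell fewer oocytes with a transcript from less RNA per oocyte, and a kit primed at poly(A) tails cannot tell less RNA from shorter tails.

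Oocyte identity was checked by 12 oocyte markers and 17 markers of cumulus and granulosa cells. The 11 oocyte markers matched to counts summed to 12100 to 16700 TPM in GV and 2770 to 4780 TPM in MIX. The 12 matched cumulus and granulosa markers summed to 12.7 to 17.9 TPM in GV and 2.65 to 6.55 TPM in MIX, and to 25.3 TPM in GV replicate 3. *GREM1* made up most of the sum in GV, at 10.1 TPM, and was at 1.64 TPM in MIX. The list did not move as one. Of its 4 tested markers, 1 (*GREM1*) was lower in MIX and 1 (*PTGS2*) higher at a limma FDR below 0.01, and 2 were neither. *PTGS2* had a log2 fold change of 1.28 with TMM factors (limma FDR 0.000294), or 0.38 on library sizes. *FSHR*, *AMH*, *INHA* and *CYP11A1* had means below 0.5 TPM in each group, and *AMH* was at 0 in MII. Of these, *CYP11A1* had its higher mean in MIX and the others in GV. The 3 white blood cell markers summed to 3.47 to 7.67 TPM in GV and 0.886 to 1.42 TPM in MIX, and to 22.9 TPM in GV replicate 3. Between MIX and GV, 0 of the 4 cumulus markers tested, 1 of the 2 white blood cell markers and 4 of the 11 oocyte markers were downregulated (limma FDR below 0.01 and a log2 fold change beyond 2), where 16.7% of all genes tested were. On library sizes these counts were 1 (*GREM1*), 2 and 5, where 28.6% of all genes were. The sums of all 3 lists were higher in GV, and their part in the values below was not tested.

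Of the 9 genes, *SDS* was the only serine-degrading one with enough counts for the model. *SDS* (ENSSSCG00000036865, Sscrofa11.1 chromosome 14, 38503922 to 38513908 in RefSeq) had 221, 238, 222 and 489 counts in GV replicates 1, 2, 4 and 5, or 11.3, 12.2, 10.6 and 20.3 TMM-scaled CPM. GV replicate 3 had 117 counts and 10.7 CPM, inside the range of the other GV libraries. In MII replicates 1 to 5, 3.96, 2.96, 1.97, 0.989 and 1.97 counts were left, and in ‘damaged’ replicates 1 to 5, 3.96, 0, 0.988, 0.984 and 0. No MIX library exceeded 0.375 CPM, and the groups did not overlap.

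Pooled over libraries, *SDS* had 1170 counts in GV and 18 in MIX, and its GV level was 113-fold higher per TMM-scaled unit of depth (95% exact interval 70.4 to 189, which covers counting error only). The fitted log2 fold change was -6.77 (SE 0.431) with TMM factors and -7.65 on library sizes, the fourth lowest of 2212 downregulated genes on the first scale. In the separate contrasts it was -6.20 for MII and -7.33 for ‘damaged’ oocytes, with the GV libraries shared between them. These values chose the gene and carry no test. All reads of *SDS* were assigned to a single transcript, ENSSSCT00000045583, with whole counts before length scaling in 15 of 15 libraries, so none was divided with *SDSL* or any other transcript.

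*SDSL* (ENSSSCG00000009870, chromosome 14, 38471162 to 38484459) lay at the limit of detection in every group. GV replicates 1, 2, 4 and 5 had 4.03, 4.09, 7.10 and 7.70 counts, and GV replicate 3 had 1.04. Of the 10 MIX libraries, MII replicate 1 and ‘damaged’ replicate 5 held about 1 count each and the others 0. The pooled sums were 23 and 2 counts, a ratio of 19.8 with a 95% interval of 4.89 to 173, which overlaps that of *SDS*. A count of 0 allows a level of up to 0.159 to 0.284 CPM in a MIX library, against 0.206 to 0.339 CPM in the 4 GV libraries of the fits, so few single libraries could tell these levels apart. Without a filter on low counts, *SDSL* was fitted at -2.68 (SE 0.423).

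On the chromosome, *SDSL* ended 19462 bases before *SDS*, and *PLBD2*, a phospholipase B domain gene, began 1926 bases after it. *PLBD2* had 4.42 ± 1.20 CPM in GV (SD, n = 4) and 3.16 ± 0.497 in MIX (SD, n = 10). Its log2 fold change was -0.45 (SE 0.184, limma FDR 0.031), which did not pass the threshold. On library sizes it was -1.34.

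Many transcripts shared the profile of *SDS*. Of 6212 other genes with a symbol and at least 10 CPM in GV, 589 had a Pearson correlation over 0.95 with it on the log2(CPM + 0.5) scale. The 15 points fall into a GV and a MIX cluster, so the correlation follows that step. *BAIAP2L1* came first (r = 0.992), with 140 ± 21.1 CPM in GV and 8.97 ± 1.74 in MIX, and *HAUS7*, *DDHD1*, *TTLL4* and *MRPL24* followed at 0.989 each.

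*PHGDH* (ENSSSCG00000006717, chromosome 4, 101445977 to 101478144), which opens serine synthesis, was all but undetected. It had 0 counts in 5 of 5 GV libraries, a count that allows up to 0.124 to 0.275 CPM per library. MII replicate 1 had 1.98 counts, ‘damaged’ replicate 5 had 2.95, and the other 8 MIX libraries had 0. No difference was detectable at this depth. *PSAT1* and *PSPH*, which act next in the same route, had counts in every library of the fits.

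**Figure D1:**
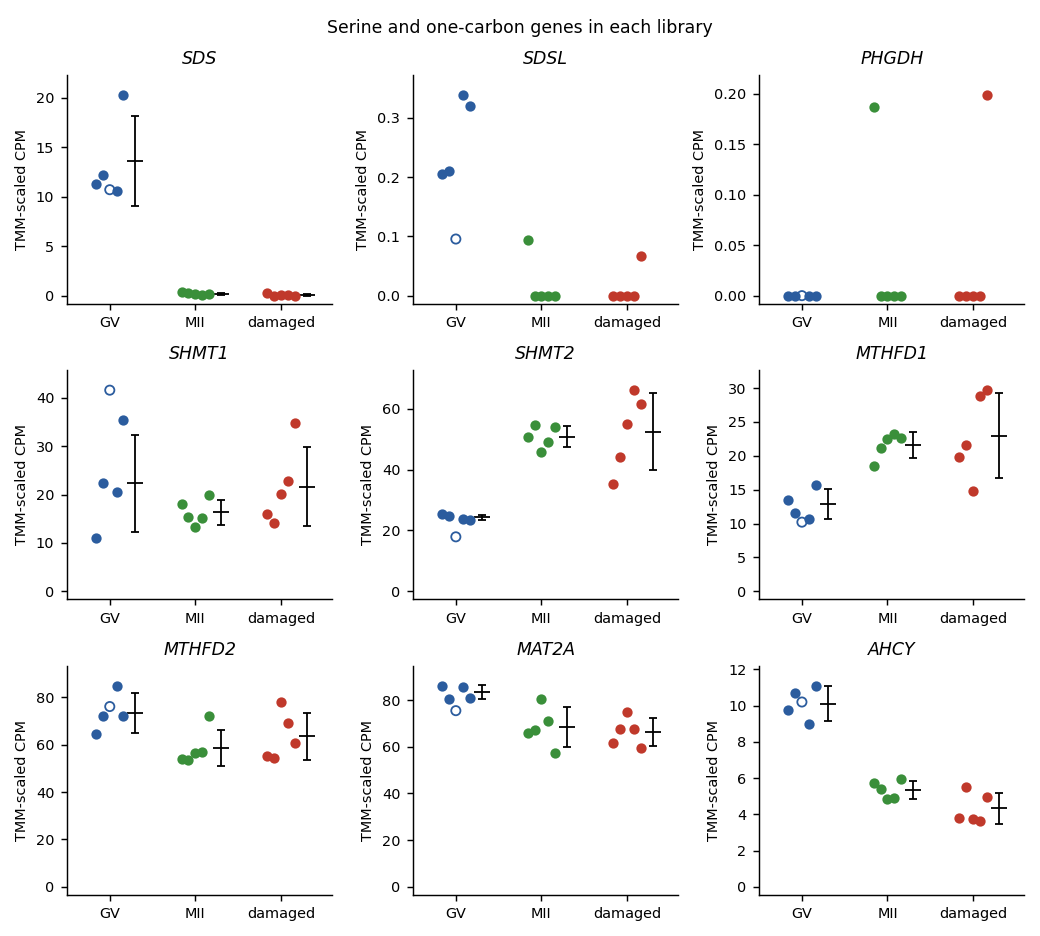
TMM-scaled CPM (y axis, linear, own range per gene) of the 9 genes in each GV, MII and ‘damaged’ library. Filled points are libraries used in the fits, the open circle is GV replicate 3, and bars show mean ± SD (not drawn for *SDSL* and *PHGDH*, which have too few counts). *SDS* is at 10.6 CPM or more in every GV library and at 0.375 or less in every matured one, whereas *SHMT2* on this scale is above all GV libraries in every matured one.

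The serine hydroxymethyltransferases parted from each other. *SHMT2* (ENSSSCG00000037077, chromosome 5, 22535780 to 22540322) had 25.3, 24.6, 23.7 and 23.5 CPM in GV replicates 1, 2, 4 and 5 and 17.9 in GV replicate 3. It had 50.8, 54.6, 46.0, 49.1 and 54.1 CPM in MII and 35.2, 44.3, 55.0, 66.2 and 61.7 CPM in ‘damaged’ replicates 1 to 5. Every matured library was above every GV library. The log2 fold change of MIX versus GV was 1.07 (SE 0.142) with TMM factors but 0.18 on library sizes, and in TPM the gene stood at 24.4 ± 3.24 in GV (SD, n = 4) and 25.7 ± 5.55 in MIX (SD, n = 10). *SHMT2* was thus level within the library total and higher relative to the typical gene.

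*SHMT1* (ENSSSCG00000036208, chromosome 12, 60414421 to 60435451) varied widely among GV pools. Its CPM in GV replicates 1, 2, 4 and 5 was 11, 22.3, 20.5 and 35.5, and GV replicate 3 reached 41.6. MII libraries stood at 16.3 ± 2.65 CPM (SD, n = 5) with a median of 15.4, and ‘damaged’ libraries ranged from 14.2 to 34.9 with a median of 20.2. The groups overlapped. The log2 fold change of MIX versus GV was -0.18 (SE 0.245), or -1.06 on library sizes, and without GV replicate 5 it was 0.09 in the other direction.

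Because both were read in the same library, the ratio of *SHMT2* to *SHMT1* in TPM is free of the choice of scaling between libraries. Like the ratios below, it still depends on the transcript lengths that enter TPM. It was 2.86, 1.38, 1.44 and 0.824 in GV replicates 1, 2, 4 and 5, and 0.537 in GV replicate 3. In MII it was 3.37 to 4.42, above every GV library, and in ‘damaged’ oocytes 2.21 to 3.89, which overlapped GV replicate 1. The mitochondrial gene was the more abundant in each matured library but not in each GV library.

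In the *MTHFD* pair the ratio of the mitochondrial to the cytosolic gene was below the GV range in all matured libraries but 1. *MTHFD1* (ENSSSCG00000002269, chromosome 7, 88471317 to 88533690) had 13.5, 11.6, 10.7 and 15.7 CPM in GV replicates 1, 2, 4 and 5 and 10.2 in GV replicate 3. MII libraries had 18.5 to 23.2 CPM, all above GV, and ‘damaged’ libraries 14.8 to 29.7, with replicate 3 at 14.8 inside the GV range. The log2 fold change was 0.78 (SE 0.168) with TMM factors and -0.12 on library sizes, so its direction depended on the scaling. It was 0.24 when Kallisto counts were summed without length scaling.

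*MTHFD2* (ENSSSCG00000008289, chromosome 3, 68819171 to 68833641) was the more abundant of the pair in every group. It had 64.5, 72.3, 84.9 and 72.3 CPM in GV replicates 1, 2, 4 and 5, 53.5 to 72.1 in MII and 54.3 to 78.1 in ‘damaged’ oocytes. The groups overlapped, and the log2 fold change of MIX versus GV was -0.27 (SE 0.122), or -1.16 on library sizes. The TPM ratio of *MTHFD2* to *MTHFD1* was 4.25 to 7.36 in the GV libraries of the fits and 6.88 in GV replicate 3. It was 2.26 to 2.94 in MII and 1.89 to 4.88 in ‘damaged’ oocytes, where replicate 3 at 4.88 was the single matured library within the GV range.

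In the methionine cycle, both members had lower means in matured oocytes. *MAT2A* (ENSSSCG00000022300, chromosome 3, 59220203 to 59225097) had the highest TPM of the 9 genes in each group, at 93.3 ± 12 in GV, 37.1 ± 6.38 in MII and 36.9 ± 3.82 in ‘damaged’ oocytes. In CPM it had 86.2, 80.7, 85.6 and 80.9 in GV replicates 1, 2, 4 and 5, against 57.5 to 80.6 in MII and 59.6 to 75.1 in ‘damaged’ oocytes. These ranges met without overlap at 80.7 in GV replicate 2 and 80.6 in MII replicate 3, and GV replicate 3, at 75.5, fell inside the MIX range. The log2 fold change was -0.31 (SE 0.105), or -1.21 on library sizes.

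*AHCY* (ENSSSCG00000007278, chromosome 17, 37726084 to 37744378) had 191, 209, 188 and 268 counts in GV replicates 1, 2, 4 and 5, or 10.1 ± 0.969 CPM (SD, n = 4) with a lowest value of 8.98, and 10.2 CPM in GV replicate 3. MII libraries had 4.84 to 5.94 CPM and ‘damaged’ libraries 3.64 to 5.53, so no matured library reached a GV library. The log2 fold change of MIX versus GV was -1.08 (SE 0.154), or -1.97 on library sizes. The TPM ratio of *MAT2A* to *AHCY* was 6.57 to 8.62 in the GV libraries of the fits and 6.69 in GV replicate 3. In MIX it was 8.76 to 18.1, without overlap but nearly meeting the GV range. With Kallisto counts summed without length scaling, the log2 fold changes were -0.60 for *MAT2A* and -1.04 for *AHCY*, closer together than with length scaling. On library sizes, *AHCY* passed the thresholds for ‘damaged’ versus GV at -2.12, where the value with TMM factors was -1.25.

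**Figure D2:**
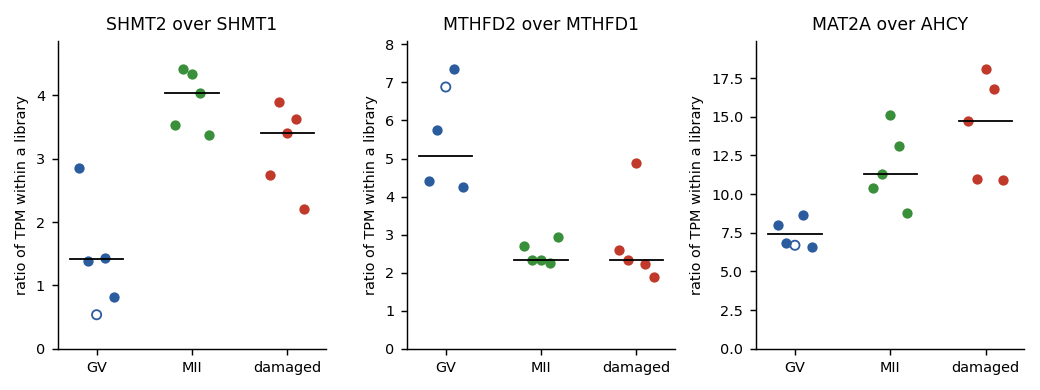
Ratio of TPM within each library (y axis, linear) for *SHMT2* over *SHMT1*, *MTHFD2* over *MTHFD1* and *MAT2A* over *AHCY*, by group. Points are libraries, the open circle is GV replicate 3 and lines are medians of the libraries in the fits. The ratio of *MAT2A* to *AHCY* is 8.62 or less in GV and 8.76 or more in the matured libraries.

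Counted together, 1 of the 7 tested members, *SDS*, was a differentially expressed gene (DEG) between MIX and GV, which needed an FDR below 0.01 together with a log2 fold change beyond 2 in either direction. Of all genes tested, 21.0% met this definition (565 up and 2212 down). Between the libraries of MIX and GV, 3 members (*SDS*, *MAT2A* and *AHCY*) lay wholly lower and 1 (*SHMT2*) wholly higher, where 29.3% and 24.3% of all genes did. The definition was met by *SDS* alone for MII versus GV, where 21.5% of all genes met it, and for ‘damaged’ versus GV, where 20.4% did. The members were chosen with these contrasts known, and the counts describe them only. The members' median was -0.27 (log2) beside -0.16 for all genes.

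**Figure D3:**
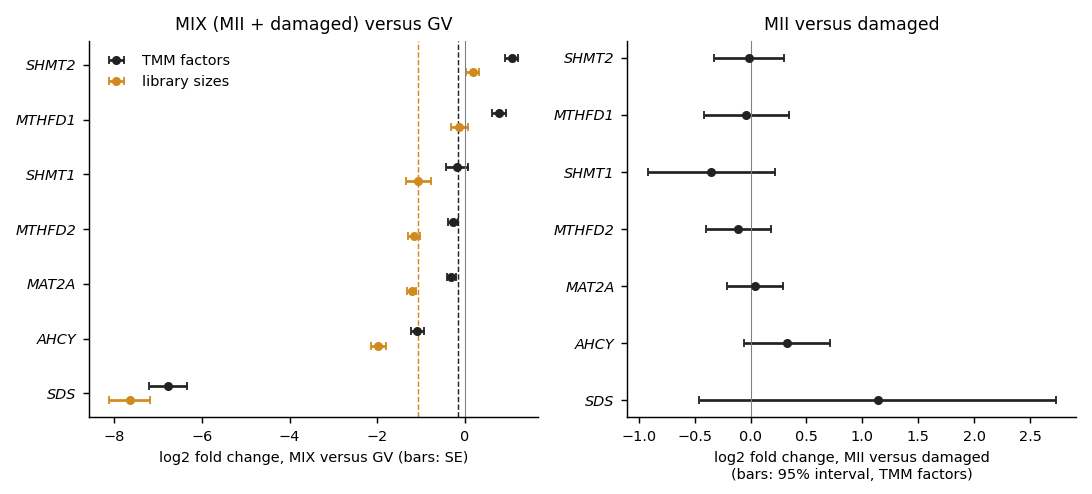
Log2 fold change of the 7 tested genes for MIX versus GV (left, bars are SE, black with TMM factors and orange on library sizes, dashed lines the median of all genes on each scale) and for MII versus ‘damaged’ (right, bars are 95% intervals, TMM factors). *SDS* lies at -6.77, far below the other 6 genes, and all intervals on the right include 0.

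The order of the levels changed through *SDS* and also between other members. By mean TPM, GV oocytes ranked *MAT2A* (93.3), *MTHFD2* (38.3), *SDS* (25.2), *SHMT2* (24.4), *SHMT1* (19.1), *AHCY* (12.7) and *MTHFD1* (7.31), followed by *SDSL* (0.563) and *PHGDH*. *MAT2A* stood clear, while from *MTHFD2* down to *MTHFD1* the range of each gene overlapped that of the next. Compared within single libraries, however, *MTHFD2* was above *SHMT2* and *AHCY* above *MTHFD1* in every GV library, GV replicate 3 included. MII oocytes ranked *MAT2A* (37.1), *SHMT2* (24.7), *MTHFD2* (14.6), *SHMT1* (6.34), *MTHFD1* (5.84), *AHCY* (3.19) and *SDS* (0.159), and ‘damaged’ oocytes gave the same order. In MII only *SHMT1* and *MTHFD1* overlapped among the first 6, whereas in ‘damaged’ oocytes each of the first 4 overlapped the next and *MTHFD1* stood apart from *AHCY*. Within every matured library *SHMT2* was above *MTHFD2* and *MTHFD1* above *AHCY*, the reverse of GV.

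MII and ‘damaged’ oocytes were then set against each other, a contrast that did not choose the genes. None of the 7 members differed with the limma test (FDR over all 13220 genes 1.00 for each, unadjusted p 0.0916 to 0.925). Of all genes, 0.0% passed, 195 (1.48%) had an unadjusted p under 0.05, and edgeR and DESeq2 also called 0. The largest estimate was that of *SDS*, with a log2 fold change of 1.14 (95% interval -0.46 to 2.73) resting on 12 counts in MII and 6 in ‘damaged’ oocytes.

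For the better counted members the intervals were narrower. *AHCY* differed by 0.33 (95% interval -0.06 to 0.71), *SHMT1* by -0.35 (-0.92 to 0.22) and *MTHFD2* by -0.11 (-0.40 to 0.18). *MAT2A* (-0.21 to 0.29), *SHMT2* (-0.33 to 0.30) and *MTHFD1* (-0.42 to 0.34) were closest to 0. Differences within these bounds could not be seen with 5 libraries a group.

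The ratios did not separate MII from ‘damaged’ oocytes either. In 3 exact two-sided permutation tests (5 against 5 libraries, smallest possible p 0.00794), *SHMT2* over *SHMT1* averaged 3.94 ± 0.474 and 3.17 ± 0.689 (p = 0.0794, adjusted 0.238). *MAT2A* over *AHCY* averaged 11.7 ± 2.45 and 14.3 ± 3.29 (exact p = 0.198, adjusted 0.297), and *MTHFD2* over *MTHFD1* 2.51 ± 0.291 and 2.78 ± 1.20 (exact p = 0.913, adjusted 0.913). The SD of *SHMT2* was 12.7 CPM in ‘damaged’ and 3.56 CPM in MII oocytes, and that of *MTHFD1* 6.30 and 1.89, differences in spread that were not tested.

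Transcripts of the same gene did not all move alike. *MAT2A* had 6 placed transcripts. In GV, ENSSSCT00000045589 held 48.2 ± 6.74% of the gene's TPM and ENSSSCT00000031931 held 25.8 ± 7.85% (SD, n = 4), and in MIX they held 12 ± 6.75% and 2.90 ± 3.59% (SD, n = 10). ENSSSCT00000063797 held 0 to 6.5% in the GV libraries and 20.5 to 48.7% in MIX, and ENSSSCT00000053877 held 0.641 to 3.60% in GV and 7.04 to 35.4% in MIX. None of these 4 ranges overlapped between GV and MIX, and GV replicate 3 had 0% of the latter pair. The share of ENSSSCT00000086254 was alike, at 21.1 ± 11.2% and 20.7 ± 6.21%.

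*MTHFD1* had 4 placed transcripts of very different length. The long ENSSSCT00000002527 and ENSSSCT00000081306 (effective lengths 6751 and 6530 bases) held 41.4 ± 15.3% and 22.1 ± 21.3% of its TPM in GV and 21.4 ± 4.33% and 0.192 ± 0.608% in MIX. The shorter ENSSSCT00000088628 (2576 bases) held 34.1 ± 11.4% in GV and 65.0 ± 7.03% in MIX, without overlap. GV replicate 3 had 100% of its *MTHFD1* TPM on ENSSSCT00000081306. Gene counts carry the mean transcript length, and *MTHFD1* was the member whose MIX versus GV value moved most when counts were summed without it, by 0.53, followed by *MAT2A* by 0.28.

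**Figure D4:**
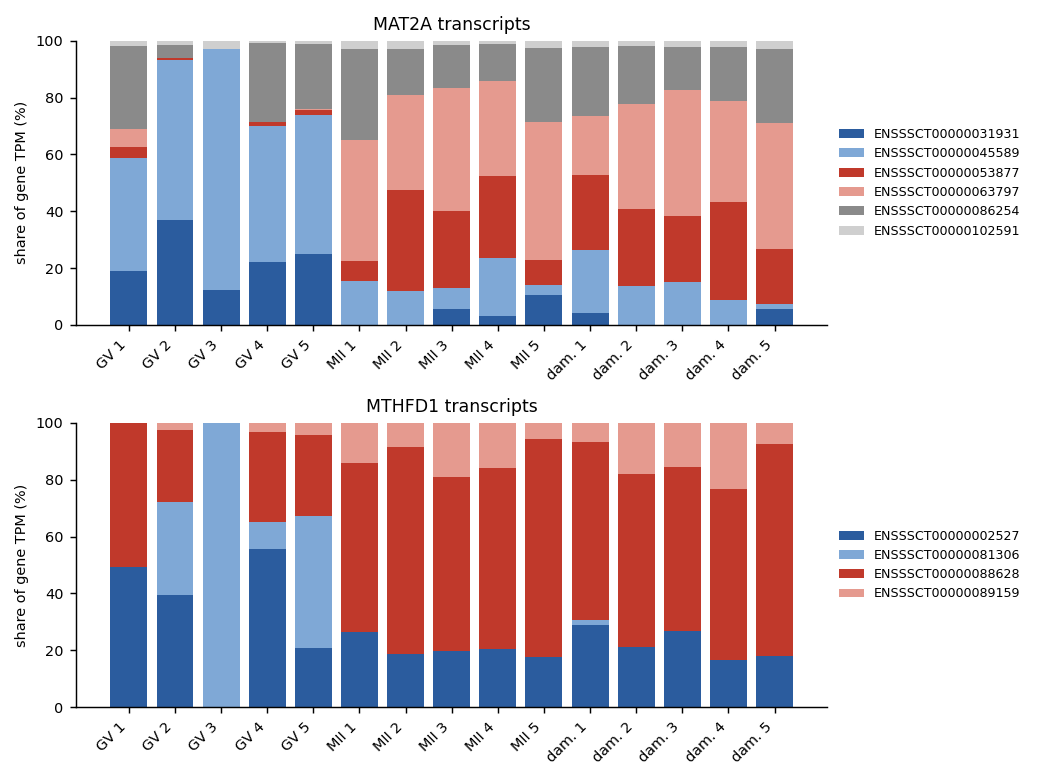
Share of the gene's TPM (y axis, %) held by each transcript of *MAT2A* (top) and *MTHFD1* (bottom) in each of the 15 libraries. Stacked colours are transcripts. ENSSSCT00000063797 of *MAT2A* holds 6.5% or less in GV and 20.5% or more in every matured library.

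The other genes with several transcripts shifted less. The main transcript of *SHMT1*, ENSSSCT00000063631, held 97.1 ± 1.94% in GV, 72.8 ± 6.75% in MII and 77.5 ± 13.1% in ‘damaged’ oocytes. That of *SHMT2*, ENSSSCT00000040829, held 88.4 ± 10.6% and 77.3 ± 13.3% in GV and MIX, and that of *AHCY*, ENSSSCT00000068282, 97.0 ± 3.63% and 90.7 ± 6.79%. In MII the ranges of *SHMT1* (62.8 to 81.8%) and *AHCY* (84.5 to 90.1%) lay below those of GV (95.8 to 100% and 92.8 to 100%), whereas ‘damaged’ libraries reached 96.2% and 100%, inside the GV ranges. For *SHMT2* the ranges of GV and MIX overlapped. Shares are Kallisto estimates from reads that overlapping transcripts can share, and were not tested.

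Around the 9 genes, 73 further genes of the pathway were listed by role. Of these, 63 had transcripts placed and 57 were tested, and 3 were upregulated and 11 downregulated between MIX and GV, that is 5.26% and 19.3% beside 4.27% and 16.7% of all genes tested. The shares were near those of all genes, and the counts of single roles below, each of few genes, were not tested. On library sizes the same list had 0 up and 18 down, where all genes had 0.348% up and 28.6% down. The list's median was -0.68 (log2), beside -0.16 for all genes. In what follows, each gene has its CPM as mean ± SD in GV (n = 4) and MIX (n = 10), or, for *FOLR1* and *PTDSS2*, its range of counts. Its log2 fold change with TMM factors (T) and on library sizes (L) and the limma FDR of the first are also given. A gene that was not called can still have an FDR below 0.01, where only the fold threshold was missed. The 3 rises kept their sign on library sizes but missed the fold threshold there.

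Serine synthesis was split between its later steps. *PSPH*, the phosphatase that releases serine in the last step, rose from 513 ± 193 to 3200 ± 358 CPM, a log2 fold change of 2.71 (SE 0.159, limma FDR 3.59e-12) or 1.82 on library sizes. By mean TPM it was at 271 in GV and 846 in MIX, above each of the 9 genes in both. *PSAT1*, the aminotransferase before it, was at 16.3 ± 6.42 and 6.46 ± 1.08 CPM (T -1.25, SE 0.203, L -2.15, FDR 1.16e-05) and missed the fold threshold on the first scale. In TPM, *PSAT1* was at 18.1 in GV and 3.65 in MIX, so with *PHGDH* at the limit of detection the 3 steps of the route had very unequal transcript levels.

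Serine transport showed 1 of 8 tested genes downregulated. *SLC1A4*, a transporter of serine and other neutral amino acids, fell from 16.1 ± 4.84 to 1.46 ± 0.650 CPM (T -3.50, L -4.40, FDR 1.39e-10). *SLC1A5*, the most abundant listed transporter, was at 145 ± 34.6 and 88.7 ± 12 CPM (T -0.69, L -1.58, FDR 0.000152) and missed the fold threshold.

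Among other uses of serine, the 5 tested genes included 1 up and 1 down. *SPTLC1*, a subunit of the enzyme that joins serine to palmitoyl-CoA to start sphingolipid synthesis, rose from 73.6 ± 2.66 to 321 ± 26.1 CPM (T 2.12, L 1.23, FDR 1.43e-13). Its partner subunit *SPTLC2* was at 27.8 ± 4.80 and 26.5 ± 2.26 CPM (T -0.05, L -0.95, FDR 0.707). *PTDSS2*, a phosphatidylserine synthase, had 13.0 to 76.0 counts in GV and at most 0.990 in MIX (T -5.36, L -6.21, FDR 4.16e-09).

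Glycine can also be made from threonine, and *GCAT*, an enzyme of that route, fell from 2.22 ± 0.797 to 0.0624 ± 0.0814 CPM (T -4.92, L -5.80, FDR 3.19e-09). *DLD*, the shared dehydrogenase of the glycine cleavage system and other complexes, was at 28.6 ± 8.18 and 106 ± 23.2 CPM (T 1.90, L 1.01, FDR 1.92e-08), just under the fold threshold.

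None of the 10 tested genes of folate-bound one-carbon reactions was called with TMM factors. At a limma FDR below 0.01 alone, 4 were higher and 3 lower in MIX. The most abundant of the 10 was *TYMS*, thymidylate synthase, at 399 ± 34.0 CPM in GV and 1100 ± 180 in MIX (T 1.45, L 0.56, FDR 1.13e-09). *MTHFS*, at 7.08 ± 2.10 and 1.75 ± 0.388 CPM (T -1.98, L -2.88, FDR 1.29e-08), fell just short of the fold threshold and was downregulated on library sizes. Folate supply had 3 of 5 tested genes downregulated, where 16.7% of all genes tested were, or 28.6% on library sizes. With so few genes this count only describes the role. *FOLR1*, a folate receptor, had 8.98 to 24.7 counts in GV and at most 1.98 in MIX (T -3.74, L -4.66, FDR 3.27e-07), *SLC46A1*, the proton-coupled folate transporter, fell from 3.12 ± 0.541 to 0.410 ± 0.139 CPM (T -2.90, L -3.80, FDR 1.74e-09), and *GGH*, which trims polyglutamate from folates, from 73.9 ± 30.8 to 14.9 ± 3.35 CPM (T -2.25, L -3.16, FDR 4.90e-09). *SLC25A32*, the mitochondrial folate carrier, was higher in MIX, at 195 ± 28.6 and 687 ± 78.8 CPM (T 1.82, L 0.93, FDR 1.26e-11), below the fold threshold.

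Of the 9 tested genes listed under the methionine cycle beyond *MAT2A* and *AHCY*, 1 was downregulated and 8 were not called. The 1 was *AHCYL1*, listed as a relative of *AHCY*, and whether it acts in the cycle was not examined. *AHCYL1* fell from 3.99 ± 0.716 to 0.667 ± 0.334 CPM (T -2.71, L -3.61, FDR 5.49e-08). *SLC25A26*, which carries S-adenosylmethionine into mitochondria, was at 191 TPM in GV and 67.8 TPM in MIX (T -0.47, L -1.36) and was not called. In methionine salvage and polyamine synthesis, *MTAP*, the first enzyme of the salvage route, rose from 82.7 ± 15.3 to 382 ± 36.5 CPM (T 2.22, L 1.32, FDR 7.61e-13), whereas *SRM*, spermidine synthase, fell from 9.35 ± 3.29 to 0.457 ± 0.198 CPM (T -4.33, L -5.20, FDR 4.55e-10). *SMS*, spermine synthase, at 466 ± 45.1 and 219 ± 26.6 CPM (T -1.09, L -1.98, FDR 1.21e-08), missed the fold threshold.

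The branches that feed methyl groups or vitamin B12 held the remaining falls. *DMGDH*, dimethylglycine dehydrogenase, fell from 49.5 ± 15.4 to 6.28 ± 1.46 CPM (T -2.96, L -3.85, FDR 7.95e-12). *ALDH7A1*, which oxidises betaine aldehyde, was at 73.6 ± 5.30 and 127 ± 28.4 CPM (T 0.75, L -0.15, a change of sign, FDR 0.00041). *CD320*, the receptor for transcobalamin-bound vitamin B12, fell from 11.8 ± 1.32 to 0.700 ± 0.375 CPM (T -4.19, L -5.08, FDR 1.17e-11), and *MMACHC*, which processes the vitamin inside the cell, from 4.04 ± 0.673 to 0.755 ± 0.394 CPM (T -2.49, L -3.38, FDR 6.08e-08). *MMADHC*, its partner, was at 456 ± 142 and 986 ± 83.6 CPM (T 1.16, L 0.26, FDR 1.73e-07). *CTH* of transsulfuration was at 18.2 ± 3.19 and 9.85 ± 1.40 CPM (T -0.88, L -1.77, FDR 1.24e-05). Both missed the fold threshold.

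**Figure D5:**
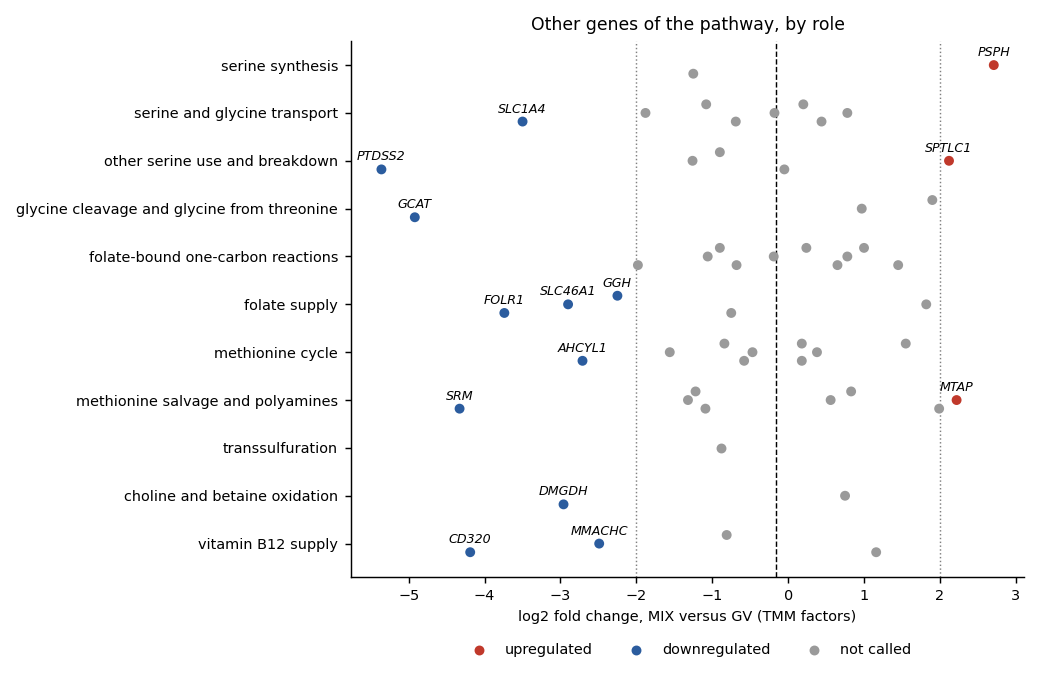
Log2 fold change of MIX versus GV with TMM factors (x axis) for the 57 tested genes listed around the members, by role (y axis). Red and blue points are up- and downregulated genes (dotted lines mark the fold threshold), grey points are not called, and the dashed line is the median of all genes at -0.16. The 11 downregulated genes spread over 8 of the roles. None belongs to folate-bound one-carbon reactions, where *MTHFS* lies at -1.98, just inside the threshold.

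Between MII and ‘damaged’ oocytes, 0 of the 57 listed genes passed the limma test (smallest FDR 1.00). 1 had an unadjusted p under 0.05, *SRR*, serine racemase, named after its value was seen, with a log2 fold change of 0.37.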

How the data were processed

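RNA of 15 pig oocyte libraries was amplified with SMART-Seq HT and sequenced single-end by the authors. The estimated counts and TPM per transcript were made by the authors with Kallisto (version 0.43 in the submitters' processing notes) from the Ensembl cDNA of Sscrofa11.1 and deposited without normalization between libraries. The deposited gene table holds estimated counts from tximport (lengthScaledTPM).

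Its columns were checked against the totals of the transcript files. In 8 of 15 the name and the total pointed to one library, and these were read. In 7 they pointed to different libraries, so those columns stayed out, and groups follow the transcript files' labels. Which labels are right was not tested. Transcripts were placed in genes by matching TPM sums over the 8 columns. This succeeded for 13639 of the 13649 genes that reached 10 counts in 2 or more columns. The tximport formula then gave gene counts for every library. In the 8 columns read, which had also served the matching, counts of at least 10 differed from the deposited ones by at most 0.00915%. The other 7 libraries had no such check.

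Counts were tested with limma 3.58.1 (voom) under R 4.3.3, with the low-count filter (filterByExpr) and TMM factors of edgeR 4.0.16 and the Benjamini-Hochberg FDR over all genes tested. MIX versus GV was fitted with 2 groups, the other contrasts with 3. Depth was 6.40 to 23.6 M estimated counts per library, and intervals and limits of 3 counts for a 0 cover counting error only. Libraries of 1 group differed by more than counting error (chi-square per gene 15.2 to 209 over 30 pairs). The matching and the fits were first tested on made-up data with known answers. The replicate libraries of a group come from separate collections, which the groups may share. The labels do not say whether equal numbers mark the same collection, and the main fits and permutation tests took the libraries as unpaired. Alternatives were library sizes, RLE factors, other filters, edgeR, DESeq2 1.42.0, all 5 GV libraries, a replicate block, summed counts and each library left out, and, chosen after seeing the data, the 8 libraries whose column names agree.

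Symbols came from a gene name table and positions from RefSeq (Sscrofa11.1). The members and the lists of pathway and marker genes were chosen with earlier results of these data known. Named are all 9 members, the 5 genes with a symbol and at least 10 CPM in GV most correlated with *SDS*, its RefSeq neighbours, and in each pathway role up to 3 called genes with the largest change and the uncalled gene with the highest TPM. *MTHFS* was named after its value was seen, for lying just short of the fold threshold. Figures were drawn with matplotlib 3.10.9.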

Additional observations from a re-analysis of the deposited data

Results flagged for a closer look

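Of 26 groups of member values, 7 had a library far from the rest of its group by Dixon's criterion. By chance it flags about 1 group in 20. That rate does not hold where all libraries but 1 are at 0, since such a group is always flagged. *SDS* in GV replicate 5 stood at 20.3 TMM-scaled CPM beside 10.6 to 12.2 in the other GV libraries of the fits, and without that library its MIX versus GV value stayed among the downregulated genes. *SDS* in ‘damaged’ replicate 1 stood at 0.301 CPM, or 3.96 counts, beside at most 0.0633 CPM in the others. *MTHFD2* in MII replicate 5 stood at 72.1 CPM beside 53.5 to 56.8 in the other MII libraries. The remaining 4 values rest on fewer than 3 counts each, in groups otherwise at 0. They are *SDSL* in MII replicate 1 (0.0944 CPM) and in ‘damaged’ replicate 5 (0.0668 CPM), and *PHGDH* in MII replicate 1 (0.187 CPM) and in ‘damaged’ replicate 5 (0.199 CPM).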

How the results depend on the processing

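*SDS* was called between MIX and GV in each of the 24 alternatives (log2 fold change -7.65 to -6.53), and 0 members and 0 genes were called between MII and ‘damaged’ oocytes in each. On library sizes, 2 members were called for ‘damaged’ versus GV, 0 pathway genes were called up and 18 down, and *MTHFD1* (-0.117, MIX versus GV) and *MAT2A* (-0.001, MII versus ‘damaged’) changed sign. With no filter on low counts, 2 members, *SDS* and *SDSL*, were called in each contrast with GV. With the filter of 10 CPM in at least 4 libraries, which leaves fewer genes to test, 1357, 1385 and 1329 genes were called for MIX, MII and ‘damaged’ versus GV, and 1 pathway gene up and 4 down. With all 5 GV libraries, 5 pathway genes were called up. Leaving out 1 library at a time gave 3 to 5 pathway genes up, with 5 without GV replicate 1, GV replicate 4 or ‘damaged’ replicate 5. It moved *SHMT1* between -0.459 and 0.093 for MIX versus GV, the latter without GV replicate 5. For MII versus ‘damaged’ oocytes it moved *MTHFD1* between -0.19 and 0.073, *MAT2A* between -0.017 and 0.105 and *SHMT2* between -0.146 and 0.079, and RLE factors gave *SHMT2* 0.005. The cause of these changes was not tested.

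Same-numbered libraries deviated together weakly at most (r from -0.112 to 0.364 over 13 pairs, 5 above 0.1). Their median r was 0.0717, against -0.0172 for other pairs. The numbers were not taken as pairs, so the main fits make no use of a weak pairing. With the replicate block, 2778 genes were called for MIX versus GV, *SDS* stood at -6.55, and no call on a member changed. For MII versus ‘damaged’ oocytes the block called 0 genes, with a smallest limma FDR of 0.0232. There, 352 genes had an unadjusted p under 0.05, against 195 in the main fit. *SDS* was among them (log2 fold change 1.168, unadjusted limma p 0.0484) but did not pass the FDR. With the 8 libraries whose column names agree, 1 member (*SDS*, -7.28), 4 pathway genes up and 12 down were called. Depth limits *SDS* in matured oocytes, *SDSL* and *PHGDH*, each with few counts or none.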
